A study of Mus musculus with 20 samples.

Results

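The TAM receptors *Axl*, *Mertk* and *Tyro3* and their ligands *Gas6* and *Pros1* were looked up by symbol in the table of gene counts, which gave 5 genes of the 39017 listed, each with its own Ensembl identifier. TAM receptors are receptor tyrosine kinases that do not bind a dying cell directly. GAS6 and protein S, the product of *Pros1*, are vitamin K dependent proteins that hold phosphatidylserine on the dying cell at one end and the receptor at the other. The engaged receptor drives engulfment and restrains inflammatory signalling, and in brain MERTK and AXL are known for the clearance of dead cells and synaptic debris by glia.

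Adult male C57BL/6 mice (C57BL/6J in the study's methods) received a lateral fluid percussion injury (FPI), a brief pulse of fluid against the exposed dura, or a sham injury, which shares the craniectomy and anesthesia and omits the pulse. The ipsilateral forebrain was dissociated 7 days later, and microglia (CD11b+ cells with intermediate CD45) and astrocytes (ACSA-2+ cells) were sorted. Each cell type was sequenced as 5 sham and 5 FPI libraries, 20 in all, and each library came from 1 animal without pooling. No allele or agent set the groups apart, and the comparisons asked where the receptors and ligands were expressed and which of them differed between FPI and sham mice.

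Levels are given as CPM, the counts of a gene scaled to a common library size, set by TMM factors over the 20 libraries, and as RPKM, which is CPM per kilobase of exon, wherever different genes are compared. Calls required an adjusted p under 0.1 together with a log2 fold change beyond 0.6 in either direction. Library totals ran from 5623349 to 13110857 counts on genes. The summed level of 8 microglial markers was 16666 to 26213 CPM in the microglial libraries and 104 to 255 CPM in the astrocyte libraries, and that of 8 astrocyte markers was 9819 to 30684 CPM in astrocytes and 244 to 598 CPM in microglia. Markers of oligodendrocytes, 5 genes, summed to between 712 and 6644 CPM in the astrocyte libraries and to between 104 and 173 CPM in the microglial libraries. FPI astrocyte replicate 5 was taken as astrocyte by its title, although its library name ends like those of microglia and repeats the animal number of replicate 2 of that group. Its astrocyte markers summed to 15177 CPM and its microglial markers to 202 CPM. Without it no member was called between FPI and sham astrocytes either, and the log2 fold changes there were -0.21 (*Axl*), -0.32 (*Mertk*), 0.088 (*Tyro3*), 0.064 (*Gas6*) and -0.11 (*Pros1*). In such bulk libraries, fewer cells of a type and less RNA per cell cannot be told apart.

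*Axl* (ENSMUSG00000002602, chr7:25757273-25788705 on the minus strand of GRCm38) was the member whose level moved with injury, and *Mertk* (ENSMUSG00000014361, chr2:128698956-128802894, plus strand) was the most abundant receptor of microglia. Their promoters are shown because the remaining results set these receptors side by side. Each is the 250 bases before the start in RefSeq (GRCm38.p6), written 5′ to 3′ on the strand of the gene, from chr7:25788734-25788983 for *Axl* and chr2:128698665-128698914 for *Mertk*. Capitals mark the GC box GGGCGG on either strand.
Axl: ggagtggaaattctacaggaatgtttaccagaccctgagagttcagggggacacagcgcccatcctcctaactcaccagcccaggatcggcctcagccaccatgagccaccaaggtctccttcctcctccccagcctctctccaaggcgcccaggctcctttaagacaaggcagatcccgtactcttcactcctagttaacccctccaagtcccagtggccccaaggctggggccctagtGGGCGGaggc
Mertk: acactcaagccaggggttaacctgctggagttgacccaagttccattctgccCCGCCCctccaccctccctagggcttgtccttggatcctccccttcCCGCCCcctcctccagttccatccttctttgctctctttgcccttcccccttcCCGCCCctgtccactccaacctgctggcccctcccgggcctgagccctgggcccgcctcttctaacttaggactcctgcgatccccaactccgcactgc
The GC box occurred 1 time in the *Axl* window and 3 times in the *Mertk* window, against 3, 4 and 5 times for *Tyro3*, *Gas6* and *Pros1*, and at least 1 copy was present in 32.7% of 32817 promoters of this length. The interferon response element, searched on both strands as GAAA, any 2 bases and GAAA again, was in none of the 5 windows and in 2.97% of all promoters. The AP-1 letters TGANTCA (6.75% of promoters) and the TATA box TATAAA (12.4%) were also in none of the 5, and TTCNNNGAA, the gamma activated site, matched 1 time, in *Pros1*, against 7.01% of promoters with a match. An absent match says only that these letters are not in this window.

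*Axl*, the receptor that binds GAS6 with highest affinity, was low in sham microglia and several fold higher after FPI. Its levels in sham microglia were 52.1, 23.5, 48.1, 49.1 and 55.7 CPM in replicates 1 to 5. In FPI microglia they were 366, 241, 248, 179 and 226 CPM. Every FPI library thus lay above every sham library, and the lowest FPI value was more than 3 times the highest sham value. The group means were 45.7 ± 12.8 and 252 ± 69.2 CPM (SD, n = 5 each), a log2 fold change of 2.48 (SE 0.22; edgeR quasi-likelihood test, Benjamini-Hochberg adjusted p = 7.88e-06). This was the smallest p of the 12143 genes tested in microglia.

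Among the members that passed the filter on low counts in microglia, *Axl* was the only 1 of 4 called, where 2.35% of all tested genes were called and 2.13% were called higher. Groups without overlap and with FPI above sham were found for 2.17% of tested genes, and among the members for *Axl* alone. The microglial libraries carry names of 2 kinds, ending in M (replicates 1 to 3) or in J-A (replicates 4 and 5), and *Axl* was called within each, with log2 fold changes of 2.78 (SE 0.27; edgeR adjusted p = 3.5e-05) and 2.00 (SE 0.20; edgeR adjusted p = 0.000348).

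Other cells in the microglial gate were read from their markers. The 5 border macrophage markers (*Mrc1*, *Lyve1*, *Cd163*, *Pf4*, *Ms4a7*) summed to 376, 251, 356, 20.8 and 15.9 CPM in sham microglia and to 224, 162, 119, 23.1 and 52.1 CPM in FPI microglia. Their sums were higher in the libraries with names ending in M, and over all libraries the FPI and sham sums overlapped. Within the M libraries each FPI sum was below each sham sum, and within the J-A libraries each FPI sum was above. The 5 monocyte markers (*Ccr2*, *Ly6c2*, *Plac8*, *S100a8*, *S100a9*) summed to 3.63 to 12.9 CPM in sham and 0.62 to 18.7 CPM in FPI microglia, and 2 FPI libraries (replicates 2 and 3) were above every sham library. The means of *Ccr2* (3.91 and 4.76 CPM), *Plac8* (0.045 and 0.97 CPM) and *S100a9* (1.87 and 3.36 CPM) were higher in FPI than in sham microglia with overlapping ranges, that of *S100a8* was lower (0.89 and 0.69 CPM), and *Ly6c2* had no count in any of the 10 libraries. Astrocyte markers summed to 244 to 358 CPM in sham and 283 to 598 CPM in FPI microglia, and the highest of these sums was 5.26% of the lowest in an FPI astrocyte library. The sums of the microglial markers themselves overlapped between FPI (16666 to 26213 CPM) and sham (21043 to 25907 CPM). The part of border macrophages, monocytes and astrocytes in the *Axl* level of microglia was not tested.

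**Figure D1:**
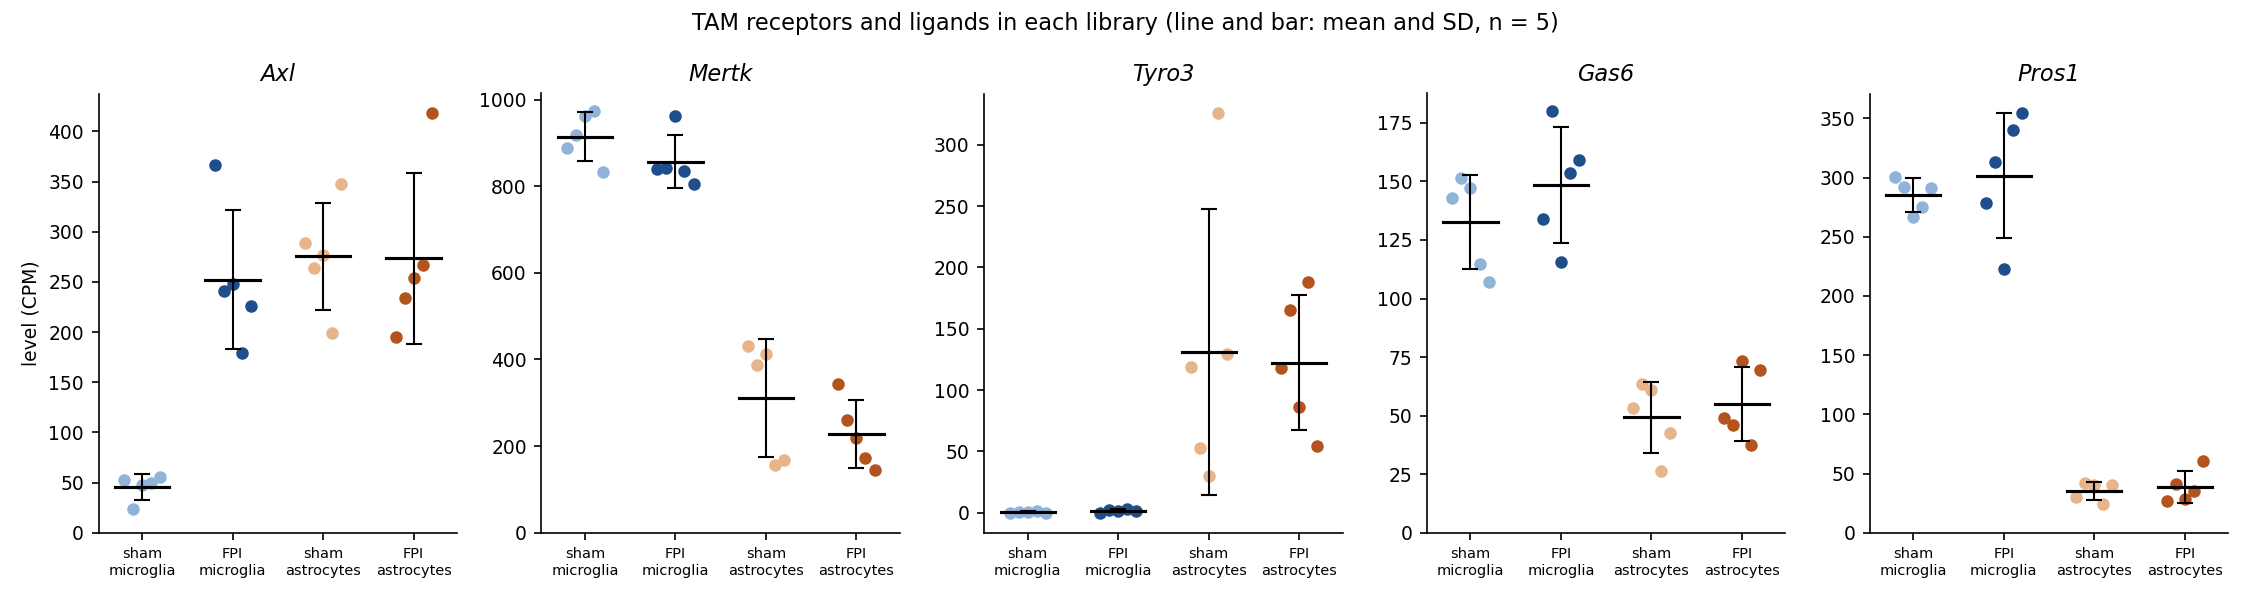
Level of each gene in CPM (vertical axis, linear, a separate scale for each gene) in the 5 libraries of each group (points, replicates 1 to 5 from left to right), with the mean (line) and SD (bar). *Axl* in FPI microglia, at 179 to 366 CPM, lies above all sham microglia (23.5 to 55.7 CPM) and level with the astrocytes, while the FPI and sham points of every other gene overlap in both cell types.

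In astrocytes *Axl* was already high without injury. Sham astrocytes had 289, 264, 277, 199 and 348 CPM of *Axl* in replicates 1 to 5. FPI astrocytes had 195, 234, 254, 267 and 418 CPM. The ranges overlapped almost fully, with means of 275 ± 53.3 and 274 ± 85.1 CPM (SD, n = 5 each) and a log2 fold change of 0.017 (SE 0.23; edgeR adjusted p = 0.999). The sign of so small a value turned under several alternatives, among them -0.25 with replicates 1 to 3 alone and -0.21 without FPI replicate 5. In the FPI astrocytes the order of the *Axl* values was also that of the 5 mural cell markers (*Pdgfrb*, *Rgs5*, *Acta2*, *Kcnj8*, *Cspg4*), which summed to 217, 1562, 1803, 2680 and 4967 CPM in replicates 1 to 5. The 5 oligodendrocyte precursor markers, which share *Cspg4* with the mural list, had the same order (116, 361.2, 361.55, 649 and 1260 CPM). The 4 fibroblast markers had it apart from replicates 3 and 4 (226 and 199 CPM). In the sham astrocytes, whose mural sums ran from 699 to 3664 CPM, the orders of all these sums differed from that of *Axl*. The part of mural cells, oligodendrocyte precursors and fibroblasts in these *Axl* values was not tested.

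The injury effect on *Axl* therefore stood apart between the cell types, and this difference was tested directly. The effect in microglia exceeded that in astrocytes by 2.48 on the log2 scale (SE 0.34; edgeR adjusted p = 0.00286), with *Axl* in rank 2 of 15077 genes by p. *Axl* was the only 1 of the 5 members called in this contrast, which called 0.199% of tested genes (30 genes), and 0.0332% with the effect in microglia the higher. Ranked by mean level, sham astrocytes, FPI astrocytes and FPI microglia were neighbours that did not differ beyond their spread, and sham microglia came last. Microglia minus astrocytes was -2.59 on the log2 scale in sham mice (SE 0.25; edgeR adjusted p = 1.29e-08), and the difference in FPI mice was -0.12 (SE 0.24; edgeR adjusted p = 0.685).

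*Mertk*, the receptor through which macrophages and microglia take up apoptotic cells, was the reverse in its distribution. Sham microglia had 887, 917, 961, 972 and 833 CPM of *Mertk* in replicates 1 to 5. After FPI the values were 840, 842, 962, 836 and 804 CPM. The groups overlapped, the SD was under 8% of the mean in each, and the log2 fold change was -0.080 (SE 0.11; edgeR adjusted p = 0.871) between means of 914 ± 56.9 and 857 ± 60.6 CPM (SD, n = 5 each). *Mertk* was thus nearly constant in the same libraries in which *Axl* varied.

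Astrocytes had less *Mertk* and more spread. Sham astrocytes had 430, 387, 413, 156 and 169 CPM in replicates 1 to 5, and FPI astrocytes had 344, 261, 219, 172 and 144 CPM. The low values were replicates 4 and 5 of each condition, and the ranges overlapped. The means were 311 ± 137 and 228 ± 78.6 CPM (SD, n = 5 each), with a log2 fold change of -0.42 (SE 0.34; edgeR adjusted p = 0.999). In the same libraries the 8 astrocyte markers summed to 30127, 25108, 24004, 9819 and 15440 CPM (sham) and to 30684, 19855, 19168, 11359 and 15177 CPM (FPI), again with replicates 4 and 5 lowest. Per 100 CPM of astrocyte markers, *Mertk* stood at 1.09 to 1.72 CPM in sham and 0.947 to 1.52 CPM in FPI libraries. The part of the marker level in the spread of *Mertk* was not tested.

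Microglia had more *Mertk* than astrocytes by 1.56 on the log2 scale in sham mice (SE 0.27; edgeR adjusted p = 3.05e-05) and by 1.91 in FPI mice (SE 0.27; edgeR adjusted p = 2.67e-06). The order of mean levels was sham microglia, FPI microglia, sham astrocytes and FPI astrocytes, and within each cell type the neighbours did not differ beyond their spread. The effects of FPI in the 2 cell types differed by 0.35 (SE 0.37; edgeR adjusted p = 0.968).

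*Tyro3*, the TAM receptor best known from neurons and myelinating glia, was close to absent from microglia. Its counts there were 1, 13, 2, 12 and 0 in sham replicates 1 to 5 and 0, 15, 11, 21 and 9 in FPI replicates 1 to 5. These sums of 28 and 56 counts over a group did not pass the filter, so *Tyro3* has no edgeR test in microglia. DESeq2, which kept it, gave a log2 fold change of 1.495 (SE 1.06; DESeq2 adjusted p = 0.676) between means of 0.533 ± 0.593 and 1.52 ± 1.18 CPM (SD, n = 5 each).

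In the astrocyte libraries *Tyro3* varied more than any other member. Sham replicates 1 to 5 had 119, 53.0, 29.9, 326 and 129 CPM. FPI replicates 1 to 5 had 118, 165, 86.5, 188 and 54.2 CPM. The highest and the lowest value were both sham libraries, and the SD was 88.7% of the mean in sham and 45.0% in FPI astrocytes. The log2 fold change was -0.075 (SE 0.54; edgeR adjusted p = 0.999), and it became 0.59 without sham replicate 4, the library at 326 CPM.

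The oligodendrocyte markers (*Mbp*, *Mog*, *Mag*, *Mobp*, *Cnp*), which encode myelin proteins and a myelin enzyme, summed to 2984, 1294, 712, 6644 and 3285 CPM in sham astrocyte replicates 1 to 5. In FPI astrocyte replicates 1 to 5 they summed to 3908, 3525, 2309, 4499 and 1385 CPM. In the sham group this is the order of the *Tyro3* values, and in the FPI group replicates 1 and 2 changed places. Per 100 CPM of these markers *Tyro3* stood at 3.93 to 4.90 CPM in sham and 3.01 to 4.69 CPM in FPI astrocytes, so that the SD of the ratio was 9.29% and 15.7% of its mean. None of the 5 markers was at 0 in a group of astrocyte libraries, and the part of oligodendrocyte RNA in the *Tyro3* level of astrocytes was not tested.

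**Figure D2:**
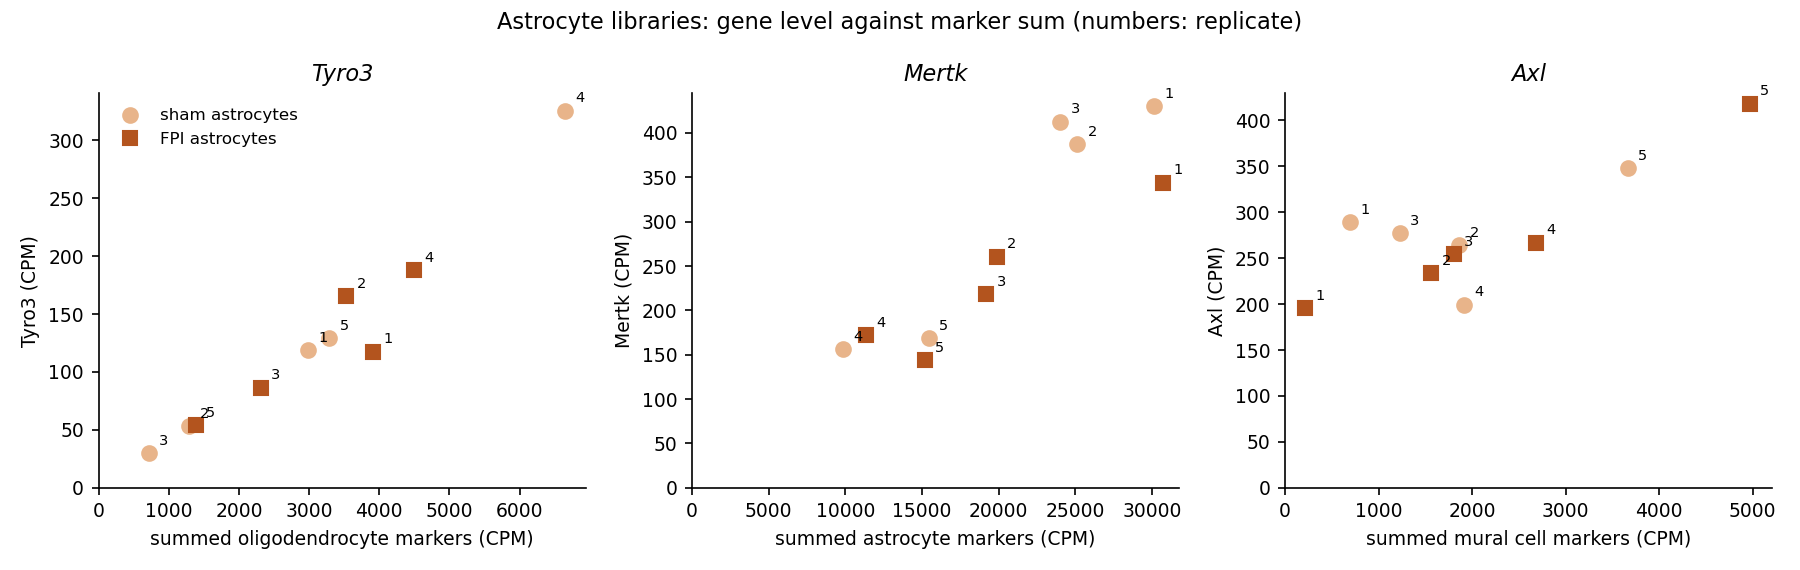
Level of *Tyro3*, *Mertk* and *Axl* in CPM (vertical axes) against the summed CPM of oligodendrocyte, astrocyte and mural cell markers (horizontal axes) in the 5 sham (circles) and 5 FPI (squares) astrocyte libraries, numbered by replicate. *Tyro3* climbs with the oligodendrocyte sum from 29.9 CPM at a sum of 712 CPM to 326 CPM at a sum of 6644 CPM, and *Mertk* is lowest where the astrocyte sum is low.

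Given these levels, the difference of microglia minus astrocytes in *Tyro3* was -7.74 on the log2 scale in sham mice (SE 0.80; edgeR adjusted p = 3.22e-08), and -6.37 in FPI mice (SE 0.73; edgeR adjusted p = 1.59e-07). Neither cell type's own sham and FPI libraries separated. The difference between the 2 injury effects was 1.37 (SE 1.04; edgeR adjusted p = 0.90), on the few microglial counts given above.

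*Gas6* (ENSMUSG00000031451, chr8:13465374-13494490, minus strand), the ligand of all the TAM receptors, was expressed by both cell types and more by microglia. Sham microglia had 143, 151, 147, 115 and 107 CPM in replicates 1 to 5, and FPI microglia had 134, 180, 116, 154 and 159 CPM. Sham astrocytes had 53.1, 63.4, 61.01, 26.4 and 42.5 CPM, and FPI astrocytes had 48.9, 45.8, 73.5, 37.4 and 69.5 CPM. FPI and sham overlapped in each cell type. The means were 133 ± 20.2 and 148 ± 24.6 CPM in microglia (log2 fold change 0.18, SE 0.14; edgeR adjusted p = 0.747) and 49.3 ± 15.2 and 55.0 ± 15.7 CPM in astrocytes (log2 fold change 0.19, SE 0.26; edgeR adjusted p = 0.999). Its exons share 34 bases with *Tmem255b* on the opposite strand, and whether strand was used in counting is not given in the sources used here.

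*Pros1* (ENSMUSG00000022912, chr16:62854307-62929346, plus strand) encodes protein S, an anticoagulant of plasma that also engages MERTK and TYRO3. Sham microglia had 301, 292, 266, 275 and 291 CPM in replicates 1 to 5, and FPI microglia had 278, 313, 223, 340 and 354 CPM. Astrocytes had 30.3, 41.6, 40.6, 24.6 and 40.7 CPM in sham mice and 27.0, 40.8, 28.7, 34.9 and 60.6 CPM in FPI mice. The sham microglial values lay close together (285 ± 14.0 CPM, SD, n = 5), and the FPI values spread from below the lowest to above the highest of them (302 ± 52.8 CPM). The log2 fold change was 0.099 in microglia (SE 0.13; edgeR adjusted p = 0.876) and 0.13 in astrocytes (SE 0.24; edgeR adjusted p = 0.999).

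For the ligands the 2 kinds of microglial library name gave different signs. With names ending in M alone the log2 fold changes of *Gas6* and *Pros1* were -0.055 and -0.093, and neither was called. With the J-A libraries alone, 2 in each group, they were 0.54 (SE 0.17; edgeR adjusted p = 0.228) and 0.34 (SE 0.17; edgeR adjusted p = 0.444). Neither was called there.

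Microglia exceeded astrocytes in both ligands with and without injury. For *Pros1* the difference on the log2 scale was 3.00 in sham mice (SE 0.21; edgeR adjusted p = 1.2e-10) and 2.98 in FPI mice (SE 0.21; edgeR adjusted p = 1.64e-10). For *Gas6* it was 1.43 in each (SE 0.22; edgeR adjusted p = 1e-05 in each). All 5 members were called between the cell types in sham mice, 3 higher in microglia (*Mertk*, *Gas6*, *Pros1*) and 2 higher in astrocytes (*Axl*, *Tyro3*), where 60.9% of all tested genes were called, 25.3% higher in microglia and 35.6% higher in astrocytes. In FPI mice 4 of 5 were called, *Mertk*, *Gas6* and *Pros1* higher in microglia and *Tyro3* higher in astrocytes, beside 60.9% of all tested genes, 25.9% and 35% in these directions. No member was called between FPI and sham astrocytes by edgeR or by DESeq2, and 0 of the 5 had an unadjusted p below 0.05, which 2.32% of tested genes had. None had all FPI libraries above all sham libraries, as 0.451% of tested genes had. In that contrast edgeR called 1 gene of 13741, or 0.00728%.

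**Figure D3:**
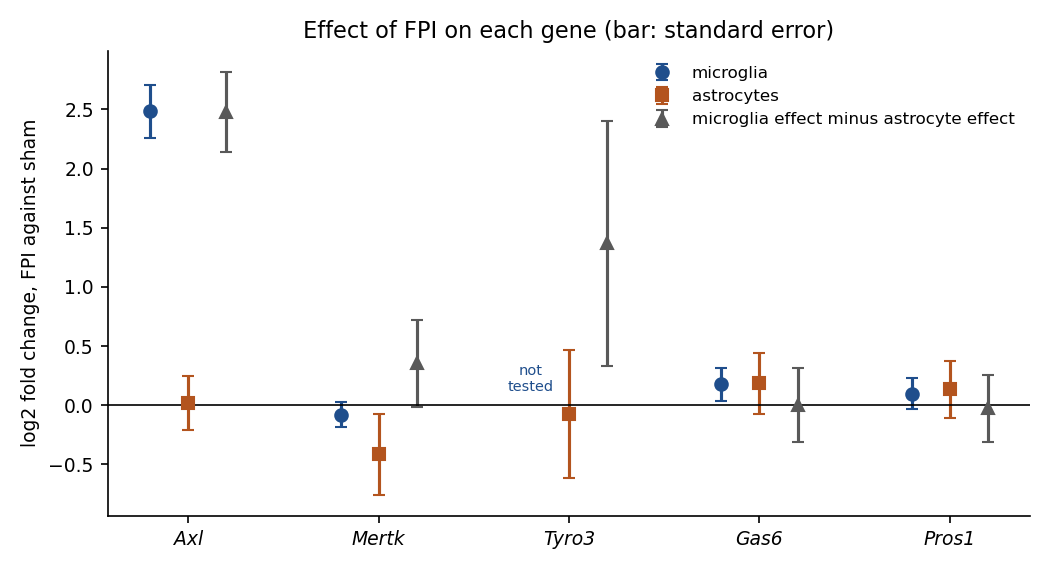
Log2 fold change of FPI against sham (vertical axis) for each gene in microglia (circles) and astrocytes (squares), and the difference of these effects (triangles), with standard errors as bars. *Axl* stands at 2.48 in microglia and 0.017 in astrocytes. *Tyro3* had no test in microglia alone.

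Per kilobase of exon, the receptors of microglia and of astrocytes were made up differently. *Mertk* held 95.8 ± 1.21% of the summed receptor RPKM in sham microglia and 79.8 ± 4.30% in FPI microglia (SD, n = 5). *Axl* held 4.14 ± 1.23% in sham microglia, between 2.16% and 5.45% in single libraries, and 20.1 ± 4.37% in FPI microglia, between 15.6% and 27.3%. In astrocytes *Mertk* held 47.1 ± 16.5% and 41.1 ± 12.2% in sham and FPI libraries, *Axl* held 37.5 ± 9.20% and 43.3 ± 14.4%, and *Tyro3* held 15.4 ± 15.2% and 15.5 ± 6.90%. Without sham astrocyte replicate 4 the *Tyro3* share in sham astrocytes was 8.98%. The *Axl* share was without overlap between sham and FPI microglia and overlapped between sham and FPI astrocytes.

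The summed receptor level was 220 ± 12.8 RPKM in sham and 248 ± 19.9 RPKM in FPI microglia, and 148 ± 19.9 RPKM in sham and 127 ± 8.75 RPKM in FPI astrocytes. The summed ligand level was 122 ± 8.74 and 132 ± 21.3 RPKM in sham and FPI microglia and 28.0 ± 7.44 and 31.0 ± 7.80 RPKM in sham and FPI astrocytes. Receptor RPKM thus exceeded ligand RPKM in each group, by 0.85 ± 0.14 and 0.92 ± 0.36 on the log2 scale in sham and FPI microglia and by 2.43 ± 0.36 and 2.06 ± 0.41 in sham and FPI astrocytes (SD, n = 5). Of the ligand RPKM, *Pros1* held 57.4 ± 3.98% and 55.8 ± 2.57% in sham and FPI microglia and 31.8 ± 5.03% and 30.5 ± 7.61% in sham and FPI astrocytes. *Gas6* was therefore the larger part of the ligand in astrocytes and the smaller part in microglia. These shares are descriptions and carry no test.

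**Figure D4:**
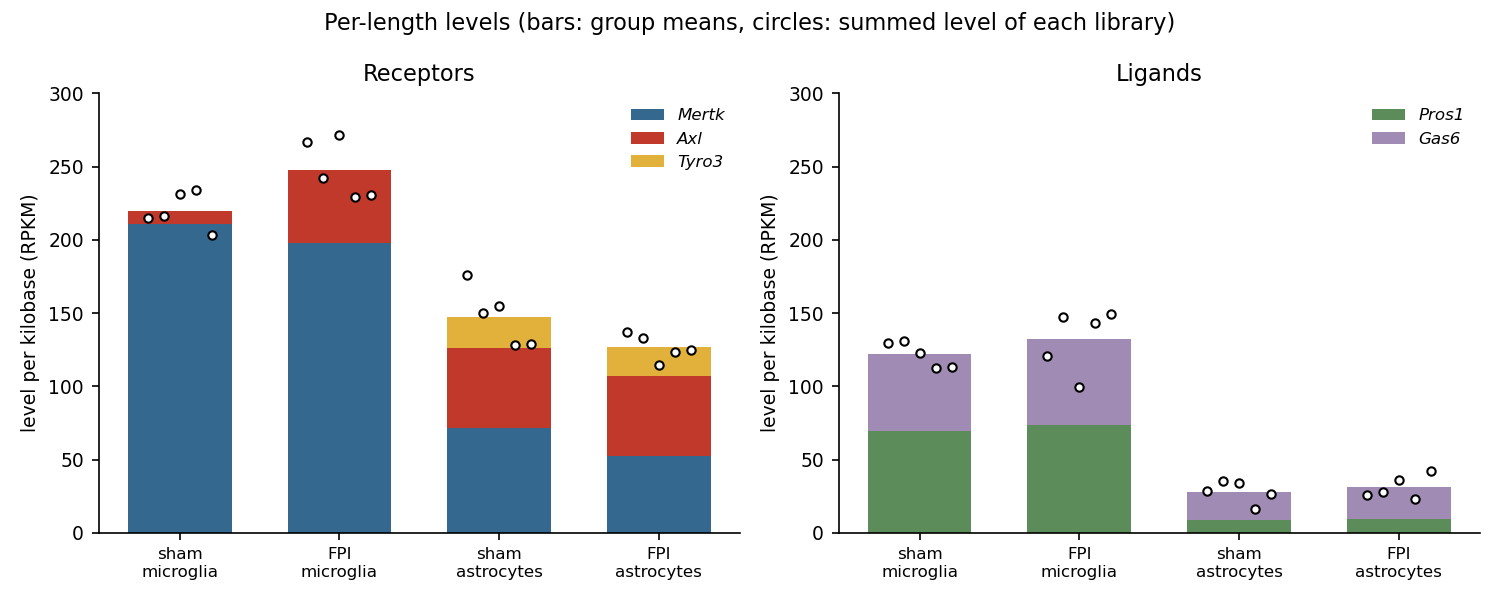
Summed per-length levels in RPKM (vertical axes, from 0) of the receptors (left) and the ligands (right) in the 4 groups, as stacked group means with the summed level of each library as circles. *Axl* widens from 9.08 to 50.1 RPKM between sham and FPI microglia beside 211 and 198 RPKM of *Mertk*, and the ligand bars of astrocytes, at 28.0 and 31.0 RPKM, are shorter than those of microglia at 122 and 132 RPKM.

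The genes whose centred log2 CPM lay nearest to each member over the 20 libraries were listed as a description, and the 4 groups set most of this likeness. Nearest to *Axl* were *Cmpk2*, an interferon-stimulated nucleotide kinase (root mean square difference 0.52 on the log2 scale), *I830012O16Rik* (0.63) and *Anxa5* (0.64), which encodes a phosphatidylserine-binding annexin. *Cmpk2* stood at 1.62 CPM in sham and 9.91 CPM in FPI microglia, against 7.89 and 9.94 CPM in sham and FPI astrocytes. Nearest to *Mertk* were *Asah1*, the acid ceramidase (0.25), the integrin *Itga6* (0.26) and the transcription factor *Sall3* (0.27). Nearest to *Tyro3* were the ephrin receptor *Ephb1* (0.54), *Ermn* (0.62), a cytoskeletal protein of myelinating oligodendrocytes, and the anoctamin *Ano4* (0.70). For *Gas6* they were *Vps37b* (0.25), *Capzb* (0.27) and *Rpl11* (0.27), and for *Pros1* they were *Rp2h* (0.23), *Tpm3-rs7* (0.23), a near copy of *Tpm3* with which it may share reads, and *Serinc3* (0.24).

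Among 67 other genes of the pathway, in 8 lists, 53 could be tested in microglia and 2 were called, both higher after FPI (3.77%, beside 2.13% of all tested genes). An unadjusted edgeR p below 0.05 was found for 10 of the 53, and for 1377 of all 12143 genes tested. *Abcg1*, a cholesterol exporter under the nuclear receptor LXR that also controls *Mertk*, rose from 207 ± 19.9 to 327 ± 59.4 CPM, with overlapping groups (0.68, SE 0.14; edgeR adjusted p = 0.0111), 1 of 6 tested genes of its list. Of these 6 genes 3 had positive and 3 negative log2 fold changes (median 0.044). The negative ones, none called, were *Rxra* (-0.31), *Mylip* (-0.14) and *Rxrb* (-0.0022). *Rxra* stood at 93.3 ± 6.77 CPM in sham and 74.3 ± 3.36 CPM in FPI microglia, without overlap. *Rhbdf2*, a partner of the sheddase ADAM17, rose from 23.5 ± 6.73 to 37.1 ± 1.97 CPM (0.68, SE 0.19; edgeR adjusted p = 0.084), 1 of 5 tested shedding genes.

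These calls were not equally firm. That of *Rhbdf2* was lost in 7 of 10 fits that left out 1 library, all but those without sham replicate 4 or 5 or FPI replicate 3 (log2 fold changes of 0.55 to 0.81 over the 10). That of *Abcg1* was lost in 1 of 10, without FPI replicate 5 (0.58). Both calls were lost when all 20 libraries were fitted together. There *Abcg1* was at 0.66 (edgeR adjusted p = 0.636) and *Rhbdf2* at 0.66 (edgeR adjusted p = 0.404). *Rhbdf2* was also not called with the J-A libraries alone (0.40; edgeR adjusted p = 0.59) or at an adjusted p below 0.05. *Abca1*, the most abundant gene of the LXR list and also a cholesterol exporter, went from 1200 ± 97.9 to 1786 ± 193 CPM without overlap (log2 fold change 0.59, SE 0.12; edgeR adjusted p = 0.00872) and was just under the fold threshold. It passed in 5 of 10 fits that left out 1 library (sham replicate 2, 4 or 5 or FPI replicate 3 or 4; 0.60 to 0.64), with at least 10 counts required in every library (0.61) and with the M libraries alone (0.64). *Lgals3*, galectin 3, a ligand of MERTK and the only other TAM ligand tested, was at 2.39 ± 1.42 and 7.44 ± 3.62 CPM (1.67, SE 0.54; edgeR adjusted p = 0.151), and DESeq2 called it (DESeq2 adjusted p = 0.0441).

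The remaining microglial lists held no call. Of 14 tested phosphatidylserine receptors and bridging proteins 8 had positive and 6 negative log2 fold changes (median 0.05, against -0.0094 over all genes), and *Lrp1*, an engulfment receptor and the most abundant, was at 3108 ± 388 and 3184 ± 595 CPM. Of 8 engulfment signalling genes 3 were positive (median -0.12), with *Elmo1*, a Rac activator, at 579 ± 89.4 and 500 ± 101 CPM. Of 6 phosphatidylserine exposure genes 2 were positive (median -0.040), with the flippase subunit *Tmem30a* at 161 ± 20.4 and 151 ± 51.7 CPM. Of 4 carboxylation genes, which supply the modified form of both ligands, 1 was positive (median -0.17), with the carboxylase *Ggcx* at 34.0 ± 3.43 and 28.3 ± 6.70 CPM. Of 9 tested TAM adaptor and feedback genes 5 were positive (median 0.12), with the kinase subunit *Pik3r1* at 415 ± 24.9 and 373 ± 33.9 CPM. Of 5 shedding genes 3 were positive (median 0.11), and *Adam10*, a sheddase, was the most abundant (log2 fold change 0.11, not called). *Adam17* stood at 241 ± 14.0 CPM in sham and 284 ± 24.1 CPM in FPI microglia without overlap. It was not called either (log2 fold change 0.25, SE 0.11, edgeR adjusted p = 0.38).

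In astrocytes 57 of the 67 genes were tested and edgeR called none, with 3 at an unadjusted p below 0.05 (*Socs3*, *Twist1*, *Aifm2*) and 1 called by DESeq2 (*Socs3*, a feedback inhibitor induced downstream of TAM receptors). Of all genes tested in astrocytes 2.32% had an unadjusted edgeR p below 0.05, and DESeq2 called 39 genes. *Socs3* stood at 4.46 ± 2.25 CPM in sham and 12.9 ± 5.62 CPM in FPI astrocytes (log2 fold change 1.55, SE 0.40; edgeR adjusted p = 0.999). The most abundant members of the lists were *Lrp1*, *Dock1*, *Abca1*, *Timp3*, *Pik3r1*, *Atp11a*, *Ggcx* and *Tub*, a TAM ligand, with log2 fold changes between -0.17 (*Timp3*) and 0.38 (*Tub*). The level of *Mfge8*, which bridges phosphatidylserine to integrins rather than to TAM receptors and was singled out after its values were seen, was 1705 ± 852 CPM in sham astrocytes and 19.9 ± 4.83 CPM in sham microglia. It was thus the opposite of *Gas6* and *Pros1* in its distribution, with -6.42 on the log2 scale for microglia minus astrocytes in sham mice (SE 0.40; edgeR adjusted p = 1.45e-11).

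**Figure D5:**
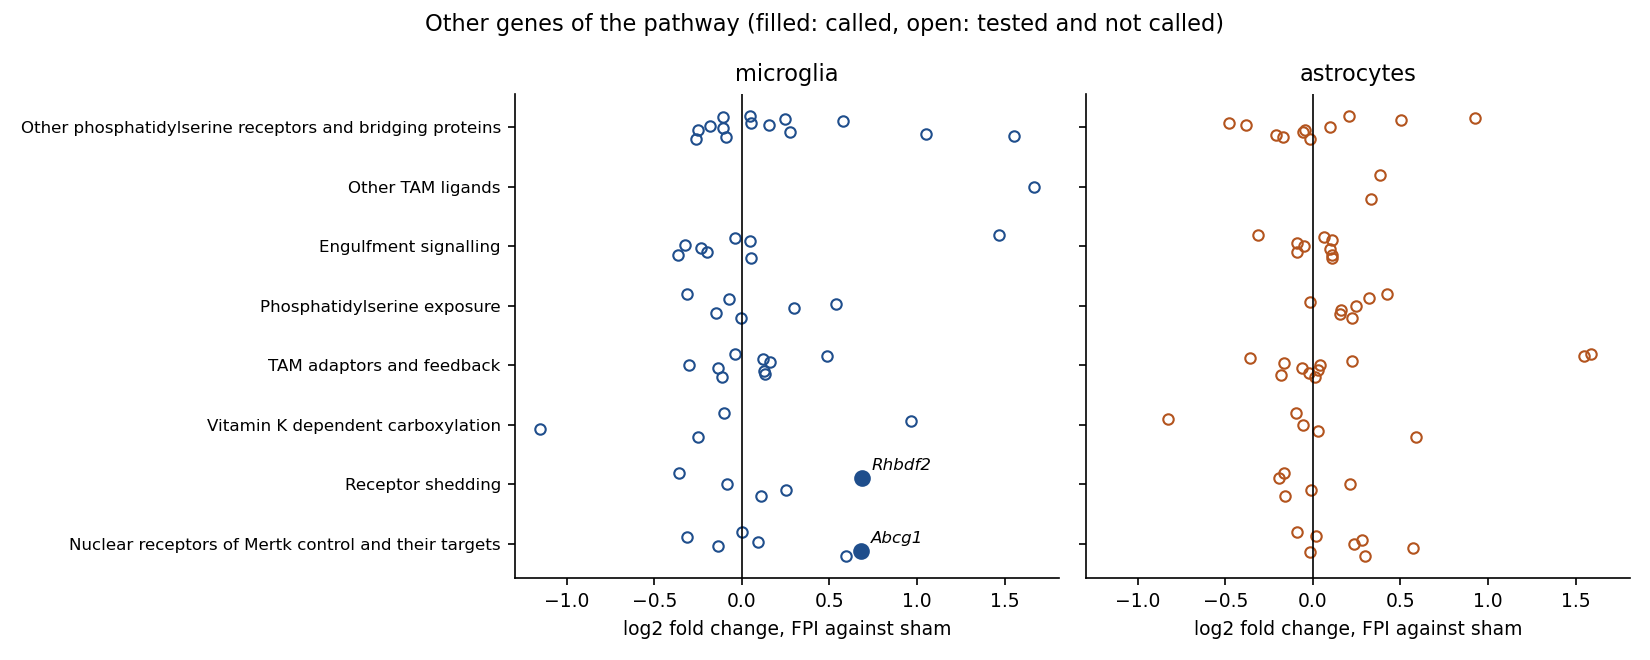
Log2 fold change of FPI against sham (horizontal axis) of each tested gene of the 8 lists (vertical axis) in microglia (left, 53 genes) and astrocytes (right, 57 genes), filled where called. The filled points are *Abcg1* and *Rhbdf2* in microglia, and no point is filled in astrocytes.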

How the data were processed

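Reads of 20 stranded total RNA libraries were aligned by the authors with HISAT2 2.1.0 to GRCm38 (GENCODE M19 by their methods). The deposited values are whole-number counts of reads per gene, made by the authors without normalization. The submitters' processing notes name featureCounts. Salmon estimates, used for the authors' own DESeq2 tests, were not used here.

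Members and lists were chosen with earlier results of these data known. A marker gene and a pathway gene were left out of their lists and are not reported here. Gene models were those of GENCODE M21 (37607 of 39017 identifiers found), and *Adgrb1* is listed under its older symbol *Bai1*. Groups came from titles. Counts were fitted in edgeR 4.0.16 (R 4.3.3) after removing genes of low count with filterByExpr at its defaults, using TMM normalization and quasi-likelihood F-tests. Adjusted p-values are Benjamini-Hochberg values over every gene tested. FPI and sham were compared within each cell type. The cell types and their difference in FPI effect were compared in a fit of all 20 libraries, taken as independent, although the animal numbers show both cell types for 3 mice, of which 2 were sham and 1 was FPI. P-values measure the spread between these animals' libraries. RPKM is CPM per kilobase of merged exons. The tests were checked on simulated data with known changes.

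The named genes are the 5 members in every library, each called gene of the pathway lists, the most abundant tested gene of each list, and the 3 genes nearest to each member in centred log2 CPM (prior count 2). Some uncalled genes of the lists were named as well. No libraries of a group agreed within sampling noise (lowest chi-square per degree of freedom 14.3), so none was taken for a duplicate.

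Alternatives were DESeq2 1.42.0, RLE factors, other filters and thresholds, robust empirical Bayes, a replicate block, terms for library sets, other sample sets, gene lengths from the longest transcript, and leaving out each library. Fits within sets of replicates were added after seeing the data. Promoters were read from RefSeq (GRCm38.p6), with all 5 members matched. Figures were drawn with matplotlib 3.10.9 in Python 3.11.15.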

Additional observations from a re-analysis of the deposited data

Results flagged for a closer look

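Of 20 sets of 5 libraries, 1 for each member in each group, 2 held a library far from the other 4, and chance marks about 1 set in 20. The first was *Axl* in sham microglia replicate 2, at 23.5 CPM, where the other sham libraries had 48.1 to 55.7 CPM. Without that library the log2 fold change of *Axl* in microglia was 2.30, against 2.48 with it, and *Axl* was still called. The second was *Mertk* in FPI microglia replicate 3, at 962 CPM, where the other FPI libraries had 804 to 842 CPM and the sham libraries reached 972 CPM.

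The effect of FPI on *Axl* differed between the cell types, by 2.48 on the log2 scale with the larger effect in microglia (edgeR adjusted p = 0.00286), and *Axl* was higher in all 5 FPI microglial libraries than in any sham microglial library. The 3 animals that gave both cell types were taken as independent in this test. Leaving out their astrocyte libraries kept the call.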

How the results depend on the processing

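Of 462 recomputed values of the 5 genes, 422 kept their direction and their side of the threshold, 40 changed sign and none gained or lost a call, and the changed signs were of log2 fold changes that were not called. The number of the 5 genes called stayed at 1 in microglia (*Axl*), 0 in astrocytes and 1 for the difference of the effects (*Axl*) under every alternative run. *Tyro3* in microglia fell under the count filter of edgeR, while DESeq2 tested it. The cause of the changes listed here was not tested. Stricter filters and smaller sample sets also test fewer genes or libraries.

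The number of all genes called in microglia (285) became 99 with the J-A libraries alone and 121 when all 20 libraries were fitted together, and ran from 177 to 423 when 1 library was left out, with 177 both without sham replicate 2 and without FPI replicate 2. In astrocytes 1 gene was called. This became 39 with DESeq2, 9 with every gene of at least 1 count, 6 with a term for replicates 4 and 5, 3 with replicates 1 to 3 alone and 53 with all 20 libraries fitted together. It became 0 with at least 10 counts in every library, with robust empirical Bayes, with FPI libraries 2 and 5 summed, with an adjusted p below 0.05 and no fold, and with replicates 4 and 5 alone, and ran from 0 to 3 when 1 library was left out. Between the sham cell types 4551 genes were called, against 9175, with at least 10 counts in every library. The effect of FPI differed between cell types for 30 genes, and for 188 with DESeq2, 1 with at least 10 counts in every library, 69 without the astrocyte libraries of animals that gave both cell types, and 21 to 48 when 1 library was left out, 48 without FPI astrocyte replicate 3. With lengths of the longest transcript, *Pros1* held 62.5% and 60.98% of the ligand in sham and FPI microglia, and the log2 ratio of receptors to ligands in sham microglia was 0.69.

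The labels do not say that a replicate number marks a shared animal, batch or day. Same-numbered sham and FPI libraries deviated together with r of -0.066 to 0.092 in microglia and, in astrocytes, of 0.45, -0.0093, 0.24, 0.45 and 0.35 for replicates 1 to 5, so 4 of the 5 astrocyte pairs, and not every pair, were over 0.1. By that rule the numbers were not taken as pairs. With a replicate block 255 genes were called in microglia (*Axl* 2.50), 11 in astrocytes and 114 for the difference of the effects. The block turned *Axl* to -0.0073 and *Tyro3* to 0.24 in astrocytes and the difference of the effects on *Gas6* to -0.018, and *Rhbdf2* was no longer called (0.72, edgeR adjusted p = 0.106).

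Signs of uncalled log2 fold changes turned as follows. In microglia, libraries with names ending in M gave *Gas6* -0.055, *Pros1* -0.093 and *Adam10* -0.053, and the J-A libraries gave *Lrp1* -0.30, *Tmem30a* 0.53 and *Ggcx* 0.037. In astrocytes, *Axl* was -0.019 with every gene of at least 1 count, -0.013 with a term for replicates 4 and 5, -0.093 with FPI libraries 2 and 5 summed and -0.0089 with all 20 libraries. *Tyro3* was 0.20 with that term, *Pros1* was -0.020 with the summed libraries, and *Ggcx* was -0.0055 with every gene and -0.0019 with the summed libraries. Replicates 1 to 3 gave *Axl* -0.25, *Tyro3* 0.92, *Gas6* -0.048, *Pros1* -0.19, *Dock1* 0.20, *Lrp1* -0.025, *Pik3r1* 0.086 and *Ggcx* -0.075, and replicates 4 and 5 gave *Atp11a* -0.36 and *Timp3* 0.34. The difference of the effects on *Gas6* was -0.00025 with DESeq2 and -0.0068 with every gene.

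When 1 library was left out, astrocyte values ran from -0.21 to 0.12 for *Axl*, -0.35 to 0.59 for *Tyro3*, -0.11 to 0.23 for *Pros1*, -0.28 to 0.050 for *Dock1*, -0.014 to 0.16 for *Lrp1*, -0.039 to 0.50 for *Atp11a*, -0.43 to 0.0091 for *Timp3*, -0.15 to 0.00027 for *Pik3r1* and -0.040 to 0.089 for *Ggcx*. Microglial values ran from -0.047 to 0.097 for *Lrp1*, -0.27 to 0.057 for *Tmem30a* and -0.024 to 0.18 for *Adam10*. The difference of the effects ran from -0.14 to 0.16 for *Gas6* and from -0.13 to 0.19 for *Pros1*.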
